A study of Mus musculus with 6 samples.

Results

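Meningeal fibroblasts are the matrix-producing cells of the membranes that wrap the brain. The 10 genes described here are known for high expression in those cells. They were taken as a fixed list of names (Ptgds, Slc13a4, Ogn, Igf2, Slc6a13, Dcn, Lum, Mgp, Aldh1a2 and Igfbp2), and all 10 were found among the 37620 genes counted. In GENCODE M21 (GRCm38) all are protein-coding genes, with Igfbp2 on chromosome 1, Ptgds on 2, Mgp, Slc13a4 and Slc6a13 on 6, Igf2 on 7, Aldh1a2 on 9, Dcn and Lum on 10, and Ogn on 13. Together they were taken as a measure of how much meninges was carried along with each dissected hippocampus.

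The data are RNA-seq read counts from the hippocampi of 6 C57BL/6 mice aged 13 weeks, 3 labelled miR17-92 knockout and 3 labelled wildtype, each mouse from its own litter. The cluster is a set of microRNAs cut from the transcript of the host gene Mir17hg. The labels give no other allele or agent for either group. How the cluster was deleted, and in which cells, was not given in the sources used here.

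The leptomeninges (arachnoid and pia) line the hippocampal fissure and follow blood vessels into the tissue, so a dissected hippocampus can hold some of them. Their fibroblasts secrete collagens and small proteoglycans, make retinoic acid and insulin-like growth factor 2, and carry transporters for solutes of the cerebrospinal fluid. None of the 10 genes is exclusive to them. Oligodendrocytes and choroid plexus also make Ptgds, choroid plexus makes Igf2 and Igfbp2, astrocytes make Igfbp2, and vascular cells make Mgp. In a whole-tissue library, more cells of a type and more RNA per cell cannot be told apart.

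Gene reads ranged from 26439693 to 57246827 per library. The host gene Mir17hg had 30, 35 and 37 reads in knockout libraries and 43, 47 and 36 in wildtype libraries, a log2 fold of -0.22 (SE 0.28, adjusted p = 0.813 in edgeR's quasi-likelihood test). The cluster's 6 hairpins had 0 reads in every library, so neither checks the genotype labels. All 11 hippocampal neuron markers were read, with a summed level of 11764 to 13625 CPM in knockout and 11853 to 12160.5 CPM in wildtype libraries (CPM are counts per 1000000 gene reads, scaled for library composition). All 10 meningeal genes were read in every library and passed the filter on low counts. The fewest reads were 95, for Aldh1a2 in wildtype replicate 1, where counting error alone puts the level between 1.92 and 2.89 CPM (exact 95% Poisson interval).

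All 10 genes had a higher fitted level in knockout than in wildtype hippocampus, but none passed the test. In edgeR's quasi-likelihood test 0 of the 10 had an adjusted p under 0.05, where 0% of the 16432 genes tested did. At an unadjusted p under 0.05 with a higher level in knockout there were 6 of 10, against 5.05% of all genes tested. The 3 knockout libraries all lay above the 3 wildtype libraries for 4 of 10 genes (Ptgds, Slc13a4, Ogn and Igf2), against 8.29% of all genes tested. Of the lists described below, the same held for 4 of 10 astrocyte markers and 4 of 7 border macrophage markers tested. It held for 5 of 30 other meningeal markers tested, and 0 markers of these 3 lists lay lower. Of 14 endothelial markers 2 lay higher and 4 lower. The median log2 fold over the 10 genes was 0.47 (knockout over wildtype), and over all genes tested it was 3.93e-05. DESeq2 called 3 of the 10 higher (Slc13a4, Ogn and Igf2), where it called 0.426% of all genes tested higher. With no filter edgeR called 2 of the 10 (Ptgds and Igf2), where 0.141% of genes were called higher. Without knockout replicate 3 it called 1 (Igf2), where 0.0789% were. The robust fit of edgeR and the fits without knockout replicate 1, wildtype replicate 1 or wildtype replicate 2 called 0 of the 10, where 0.0791%, 0.00591%, 0.00607% and 0.0547% of genes were called higher. No member lay lower in all 3 knockout libraries, where 8.34% of genes did. The counts describe a list that was picked with results of the same mice known.

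**Figure D1:**
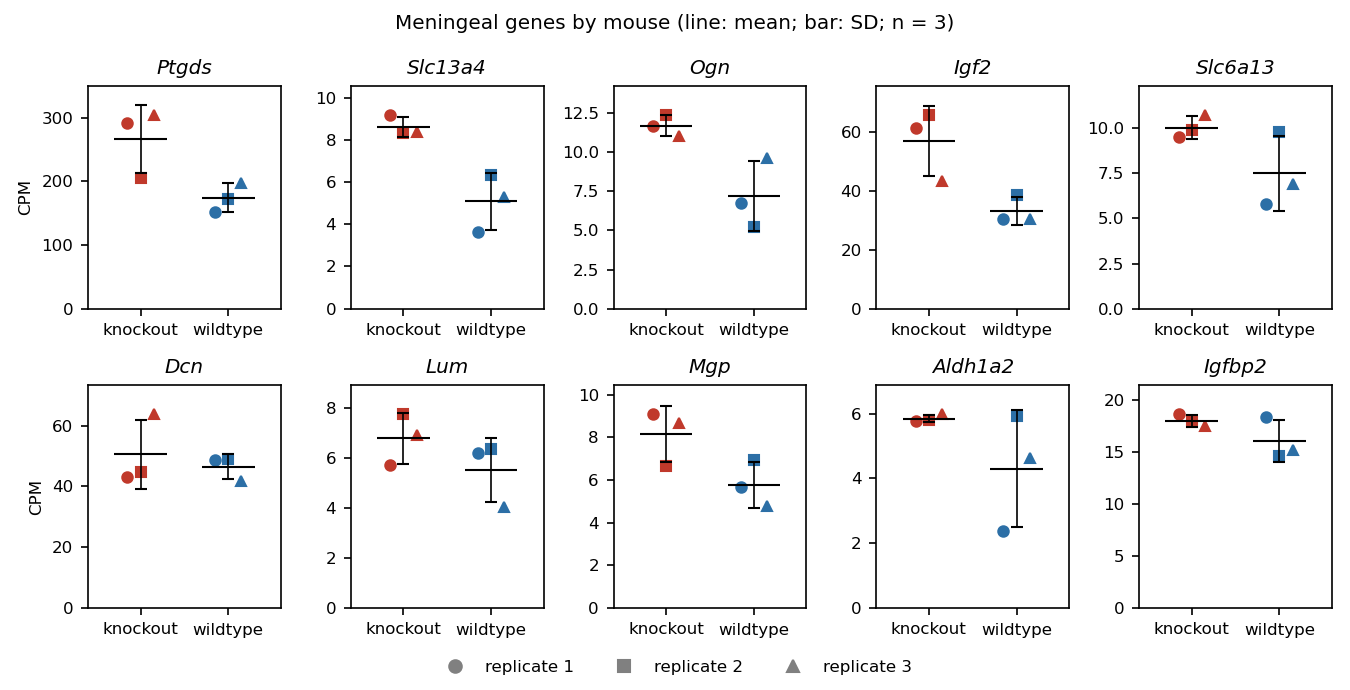
Level of each of the 10 genes in CPM (vertical axis, from 0) in knockout (left) and wildtype (right) hippocampi; each point is 1 mouse, lines are means and bars SDs (n = 3). The groups stand apart for Ptgds, Slc13a4, Ogn and Igf2 and overlap for the other 6 genes.

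Ptgds (ENSMUSG00000015090) encodes lipocalin-type prostaglandin D synthase, which makes prostaglandin D2 and is secreted into the cerebrospinal fluid. It measured 291, 205 and 304 CPM in knockout replicates 1, 2 and 3, and 152, 172 and 198 CPM in wildtype replicates 1, 2 and 3. The lowest knockout mouse, replicate 2, lay just above the highest wildtype mouse. This gave a log2 fold of 0.62 (SE 0.14), with an adjusted p of 0.276 in edgeR's quasi-likelihood test. Per kilobase of exon it was by far the most abundant of the 10, at 162 ± 33 CPM per kb in knockout and 105 ± 14 CPM per kb in wildtype (SD, n = 3).

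Aldh1a2 (ENSMUSG00000013584) encodes the dehydrogenase that turns retinaldehyde into retinoic acid, and in the adult brain it is known mainly from the meninges. Knockout mice had 5.75, 5.81 and 5.98 CPM, and wildtype mice 2.37, 5.92 and 4.61 CPM. The knockout libraries were close together, and wildtype replicate 2 reached their level while wildtype replicate 1 was the lowest library. The log2 fold of 0.44 (SE 0.27, adjusted p = 0.599 in edgeR's test) was 0.15 without wildtype replicate 1 and 0.76 without wildtype replicate 2.

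Slc13a4 (ENSMUSG00000029843), a sodium-coupled carrier of sulfate, showed one of the largest differences. Its level was 9.18, 8.32 and 8.36 CPM in knockout mice and 3.64, 6.33 and 5.27 CPM in wildtype mice. The groups did not overlap, and the wildtype mice were the more variable. A log2 fold of 0.76 was fitted (SE 0.18, adjusted p = 0.285 in edgeR's test), and DESeq2 gave 0.76 with an adjusted p of 0.00977. Ogn and Igf2 had adjusted p of 0.0189 and 0.0278 in DESeq2.

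Slc6a13 (ENSMUSG00000030108) encodes GAT2, a carrier that takes up GABA and taurine at the brain's borders. It measured 9.49, 9.87 and 10.7 CPM in knockout mice and 5.78, 9.78 and 6.90 CPM in wildtype mice. Wildtype replicate 2 fell among the knockout values, so the groups overlapped. Its log2 fold was 0.42 (SE 0.17, adjusted p = 0.447 in edgeR's test), and it was 0.26 without wildtype replicate 1 and 0.67 without wildtype replicate 2.

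Igf2 (ENSMUSG00000048583), a fetal growth factor that stays active after birth in meninges and choroid plexus, had the largest log2 fold of the 10. It measured 61.5, 65.9 and 43.5 CPM in knockout mice and 30.4, 38.8 and 30.5 CPM in wildtype mice. Knockout replicate 3 stood well below the other two knockout mice and nearer to wildtype replicate 2. The log2 fold was 0.77 (SE 0.15, adjusted p = 0.227 in edgeR's test). It was 0.94 without knockout replicate 3, and the adjusted p of 0.0346 in edgeR's test then passed. The genes Igf2os, Gm49394 and Mir483 overlap Igf2 in GENCODE M21. Igf2os held 7 to 15 reads per library and Mir483 held 0, and Gm49394 is not among the genes counted.

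Igfbp2 (ENSMUSG00000039323) encodes a secreted protein that binds insulin-like growth factors. It measured 18.6, 17.9 and 17.4 CPM in knockout mice and 18.3, 14.6 and 15.2 CPM in wildtype mice. Wildtype replicate 1, the lowest library for Igf2, Slc13a4 and Aldh1a2, was the second highest for Igfbp2. The log2 fold was 0.16 (SE 0.09, adjusted p = 0.578 in edgeR's test), with a 95% interval from -0.05 to 0.37. It was 0.098 without wildtype replicate 2 and 0.27 without wildtype replicate 1.

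Ogn, Dcn and Lum encode osteoglycin, decorin and lumican, small leucine-rich proteoglycans that bind collagen fibrils. Ogn (ENSMUSG00000021390) measured 11.7, 12.4 and 11.0 CPM in knockout mice and 6.75, 5.21 and 9.63 CPM in wildtype mice. The groups did not overlap, with the knockout mice close together. Its log2 fold was 0.71 (SE 0.19, adjusted p = 0.317 in edgeR's test), or 0.52 without wildtype replicate 2 and 0.96 without wildtype replicate 3. Cenpp overlaps Ogn on the other strand and had 55 to 101 reads per library. The overlap is of whole gene spans, and shared exons were not looked for. The strand setting is not given either, so whether reads of this pair mix was not tested.

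Dcn (ENSMUSG00000019929) measured 43.2, 44.8 and 63.8 CPM in knockout mice and 48.6, 49.2 and 41.9 CPM in wildtype mice. Only knockout replicate 3 stood above the wildtype mice, and the other two knockout mice lay within the wildtype range. The log2 fold was 0.13 (SE 0.14, adjusted p = 0.778 in edgeR's test), the smallest of the 10, and it turned to -0.085 without knockout replicate 3. It was 0.057 without wildtype replicate 3, and 0.23 and 0.21 without knockout replicates 1 and 2. Lum (ENSMUSG00000036446) measured 5.72, 7.75 and 6.91 CPM in knockout mice and 6.18, 6.35 and 4.05 CPM in wildtype mice. The groups overlapped, and wildtype replicate 3 was the lowest. Its log2 fold was 0.29 (SE 0.18, adjusted p = 0.617 in edgeR's test), or 0.11 without wildtype replicate 3.

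Mgp (ENSMUSG00000030218) encodes matrix Gla protein, an inhibitor of calcification in vessel walls and cartilage. Mgp measured 9.08, 6.64 and 8.69 CPM in knockout mice and 5.66, 6.93 and 4.77 CPM in wildtype mice. Knockout replicate 2 lay within the wildtype range. A log2 fold of 0.49 was fitted (SE 0.16, adjusted p = 0.359 in edgeR's test).

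**Figure D2:**
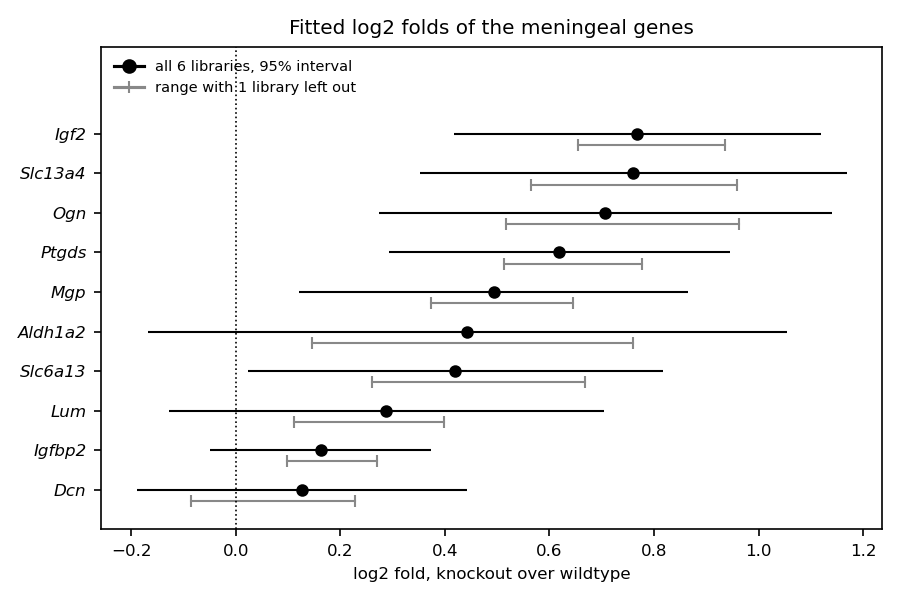
Fitted log2 folds of the 10 genes, knockout over wildtype (horizontal axis; black points with 95% intervals from edgeR's fit to all 6 libraries), and the range of the fold when 1 library is left out (grey). The folds run from 0.13 for Dcn to 0.77 for Igf2, and among the grey ranges Dcn's alone reaches below 0.

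The 95% intervals of the log2 fold lay above 0 for 6 genes (Igf2, Slc13a4, Ogn, Ptgds, Mgp and Slc6a13) and held 0 for Aldh1a2, Lum, Igfbp2 and Dcn. These are intervals of single genes, before any adjustment over the 16432 genes tested. Igfbp2, with an interval from -0.05 to 0.37, did not reach the lower bound of 0.42 for Igf2. Every other pair of intervals overlapped, those of Igfbp2 with Slc13a4 and of Dcn with Igf2 narrowly. No difference between the folds of 2 genes was tested.

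Per kilobase of exon, Ptgds stood alone at the top. Igf2, Igfbp2 and Dcn came next, at 9.95 ± 2.1, 9.73 ± 0.32 and 8.66 ± 2.0 CPM per kb in knockout, and did not differ there beyond their SDs. In wildtype the levels per kb were 5.80 ± 0.84 for Igf2, 8.69 ± 1.1 for Igfbp2 and 7.97 ± 0.69 for Dcn (SD, n = 3), so Igf2 was below both there. Igf2 and Mgp overlapped within their SDs in wildtype. Mgp and Ogn followed, at 6.86 ± 1.1 and 4.56 ± 0.26 CPM per kb in knockout and 4.87 ± 0.91 and 2.81 ± 0.87 CPM per kb in wildtype. Slc6a13 and Lum, at 3.45 ± 0.22 and 2.77 ± 0.41 CPM per kb in knockout, had 2.58 ± 0.71 and 2.26 ± 0.52 CPM per kb in wildtype. Aldh1a2 and Slc13a4 were lowest, at 2.58 ± 0.051 and 1.90 ± 0.11 CPM per kb in knockout and 1.90 ± 0.79 and 1.12 ± 0.30 CPM per kb in wildtype. From Slc6a13 down, neighbours in this order overlapped within their SDs in wildtype.

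Added together, the 10 genes came to 465, 384 and 480.4 CPM in knockout replicates 1, 2 and 3, and to 279.7, 315 and 320.5 CPM in wildtype replicates 1, 2 and 3. Ptgds made up more of this sum than the other 9 together. Without it the sum was 174, 179 and 176 CPM in knockout mice and 128, 143 and 123 CPM in wildtype mice. The summed level was thus nearly the same in the 3 knockout mice once Ptgds was set aside, and lower in each wildtype mouse. In knockout replicate 3 a lower Igf2 and a higher Dcn than in the other knockout mice offset each other in that sum.

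The 10 genes did not move as a block from mouse to mouse. Every gene had its highest value of the 6 libraries in a knockout mouse: 3 genes in replicate 1, 3 in replicate 2 and 4 in replicate 3. The lowest value was always in a wildtype mouse, in replicate 1 for 5 genes, replicate 2 for 2 and replicate 3 for 3. The share of all genes with this pattern was not computed, and the list was picked with results of these mice known. Within wildtype, replicate 2 was the highest mouse for 7 of 10 genes. Knockout replicate 3 was the lowest knockout mouse for Igf2 and the highest for Dcn. The ratio of Igf2 to Dcn CPM was 1.43, 1.47 and 0.681 in knockout replicates 1, 2 and 3. It was 0.625, 0.788 and 0.727 in wildtype replicates 1, 2 and 3, so knockout replicate 3 had a ratio within the wildtype range and the other two knockout mice lay above it.

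**Figure D3:**
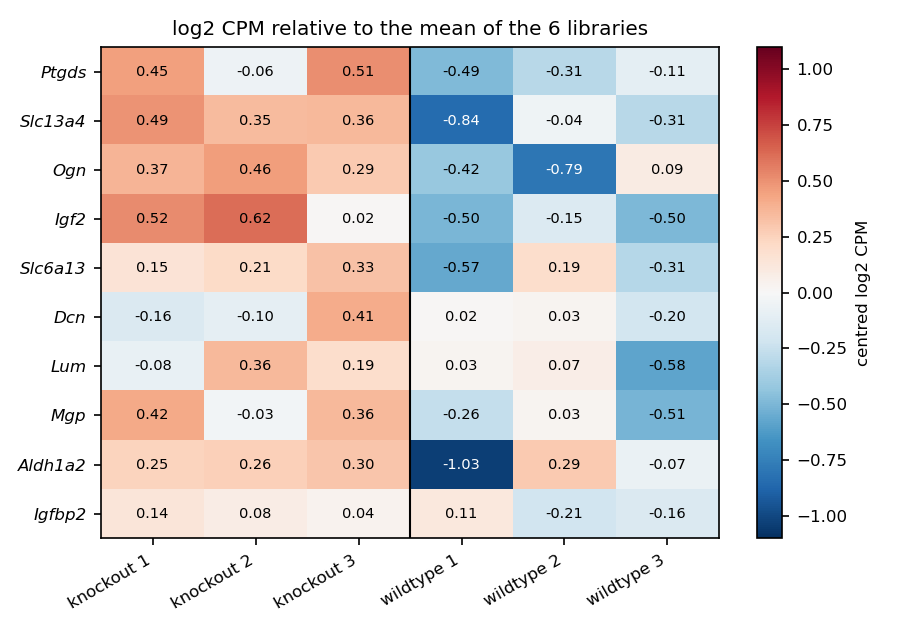
log2 CPM of the 10 genes (rows) in each library (columns, knockout left of the line), relative to the gene's mean over the 6 libraries. Wildtype replicate 1 holds the lowest cells of the map, -1.03 for Aldh1a2 and -0.84 for Slc13a4, yet is near 0 for Dcn (0.02) and Lum (0.03).

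Other markers of meningeal fibroblasts and arachnoid cells had a smaller median log2 fold than the 10 genes, 0.13, and it was 0.21 without wildtype replicate 2. Of 32 such markers 30 were tested, of which 24 had a positive and 6 a negative log2 fold, and 0 were called by edgeR's quasi-likelihood test, which gives every adjusted p of this and the following lists. At an unadjusted p under 0.05 there were 4 higher and 0 lower. Those of smallest p were Ccn3, a secreted matrix protein that neurons also make (log2 fold 0.29, SE 0.08, adjusted p = 0.305), Col1a2, a chain of fibrillar collagen (0.36, SE 0.12, adjusted p = 0.366), and Crabp2, a carrier of retinoic acid (0.60, SE 0.22, adjusted p = 0.399). Col1a1, the partner chain of Col1a2, measured 8.46 ± 0.60 CPM in knockout and 8.14 ± 1.3 CPM in wildtype (SD, n = 3), a log2 fold of 0.05. Col3a1 measured 4.56 ± 1.2 CPM in knockout and 4.53 ± 0.92 CPM in wildtype, a log2 fold of 0.02. The fibroblast marker Pdgfra, which oligodendrocyte precursors also express, had a log2 fold of 0.04 (SE 0.05). None of the 32 markers was at 0 reads in any library. Foxc2, a transcription factor of mesenchymal cells that was too scarce to be tested, measured 0.206 ± 0.067 CPM in knockout and 0.180 ± 0.052 CPM in wildtype. The summed level of the 32 was 534 to 558 CPM in knockout and 465 to 512 CPM in wildtype mice. Without Ccn3, the most abundant of them, the sum was 383, 365 and 388 CPM in knockout and 371, 371 and 322 CPM in wildtype mice, and the groups overlapped. That sum was chosen after seeing the data.

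Macrophages of the brain's borders, which live in the meninges and around vessels beside these fibroblasts, had the largest median log2 fold of the cell type lists described here, 0.56. All 7 tested of 8 markers had a positive log2 fold, 4 of them at an unadjusted p under 0.05, and 0 were called by edgeR in either direction. Lyve1, a hyaluronan receptor, measured 1.37 ± 0.21 CPM in knockout and 0.578 ± 0.24 CPM in wildtype (SD, n = 3), which gave a log2 fold of 1.24 (SE 0.29, adjusted p = 0.285). Cbr2, a carbonyl reductase, had a log2 fold of 1.46 (SE 0.35, adjusted p = 0.285), and the scavenger receptor Cd163 one of 0.67 (SE 0.21, adjusted p = 0.339). These transcripts are scarce. The 8 markers summed to 33.2 to 33.9 CPM in knockout and 28.4 to 29.1 CPM in wildtype mice, and most of that sum was Stab1, at 20.7 ± 0.56 CPM in knockout and 19.98 ± 1.5 CPM in wildtype. Their part in the levels of the 10 genes was not tested.

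Choroid plexus, which shares Igf2, Igfbp2 and Ptgds with the meninges, can be carried along with a hippocampus as well. Its 15 markers summed to 42.0 to 50.2 CPM in knockout and 35.1 to 78.3 CPM in wildtype mice, and Tmem72 was at 0 reads in some libraries. Of 11 tested 7 had a positive and 4 a negative log2 fold (median 0.05), with 0 called and, at an unadjusted p under 0.05, 1 higher and 0 lower. With 1 library left out that median ran from -0.046 (wildtype replicate 3 left out) to 0.21 (knockout replicate 1 left out), so its sign was not stable. Ttr, which encodes transthyretin and defines choroid plexus epithelium, averaged 3.81 ± 2.1 CPM in knockout and 15.5 ± 20 CPM in wildtype (SD, n = 3). The log2 fold was -1.99 (SE 0.91). The wildtype mean came from replicate 1 at 39.0 CPM, the library with the highest choroid plexus sum. Of the genes shared with choroid plexus, that library had the lowest Ptgds of the 6 but the second highest Igfbp2 (18.3 CPM). Its Igf2, at 30.4 CPM, was level with that of wildtype replicate 3 at 30.5 CPM. Kl, which encodes klotho, had a log2 fold of 0.29 (SE 0.12, adjusted p = 0.430), and Prlr, the prolactin receptor, one of -0.17 (SE 0.12, adjusted p = 0.653).

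Vascular lists showed no common direction. Endothelial markers had 5 positive and 9 negative log2 folds of 14 tested (median -0.02, 0 called; 2 higher and 3 lower at an unadjusted p under 0.05), and mural cell markers 5 positive and 9 negative of 14 (median -0.04, 0 called; 2 higher and 0 lower). Without wildtype replicate 2 the mural median was 0.09 and the endothelial median 0.02. Endothelial markers summed to 304 to 322 CPM in knockout and 306 to 331 CPM in wildtype, and mural markers to 269 to 280 CPM in knockout and 269 to 294 CPM in wildtype. Single genes stood apart in both directions, among them Mfsd2a, a lipid transporter of the blood-brain barrier (log2 fold 0.52, adjusted p = 0.118), Ly6c1 (0.38, adjusted p = 0.250) and the tight junction gene Cldn5 (-0.32, adjusted p = 0.311). The potassium channel genes of pericytes, Abcc9 and Kcnj8, had log2 folds of 0.43 and 0.49 (adjusted p of 0.326 and 0.358), and Pdgfrb one of -0.17 (adjusted p = 0.521).

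Markers of other cells that share Ptgds or Igfbp2 were looked at next. Astrocyte markers had 10 of 10 positive log2 folds (median 0.14, 0 called; 5 higher and 0 lower at an unadjusted p under 0.05), and their summed level was 6319 to 6811 CPM in knockout and 5797 to 6462 CPM in wildtype mice. Gjb6 (log2 fold 0.58, adjusted p = 0.0624), Slc4a4 (0.19, adjusted p = 0.250) and Aqp4 (0.39, adjusted p = 0.261) had the smallest p of them. Other fits called some of the 10 astrocyte markers, counted in either direction. These were 3 with DESeq2, 2 with no filter and 2 without knockout replicate 3. The robust fit and the fit without wildtype replicate 2 called 1 each. The shares of all genes called higher in these fits are given above with the 10 meningeal genes. Oligodendrocyte markers had 2 positive and 8 negative log2 folds (median -0.15, 0 called; 0 higher and 1 lower), at 3345 to 3588 CPM in knockout and 3468 to 4300 CPM in wildtype mice. That median was -0.041 without wildtype replicate 2, the library with the highest level of the list, and -0.22 without wildtype replicate 1. Among them the log2 fold was -0.26 for Mag and -0.15 for Mbp. Ependymal markers had 5 positive and 2 negative (median 0.06, but -0.0096 without wildtype replicate 1 and 0.30 without wildtype replicate 2; 0 called and 0 at an unadjusted p under 0.05). The part of these cells in the levels of Ptgds and Igfbp2 was not tested.

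**Figure D4:**
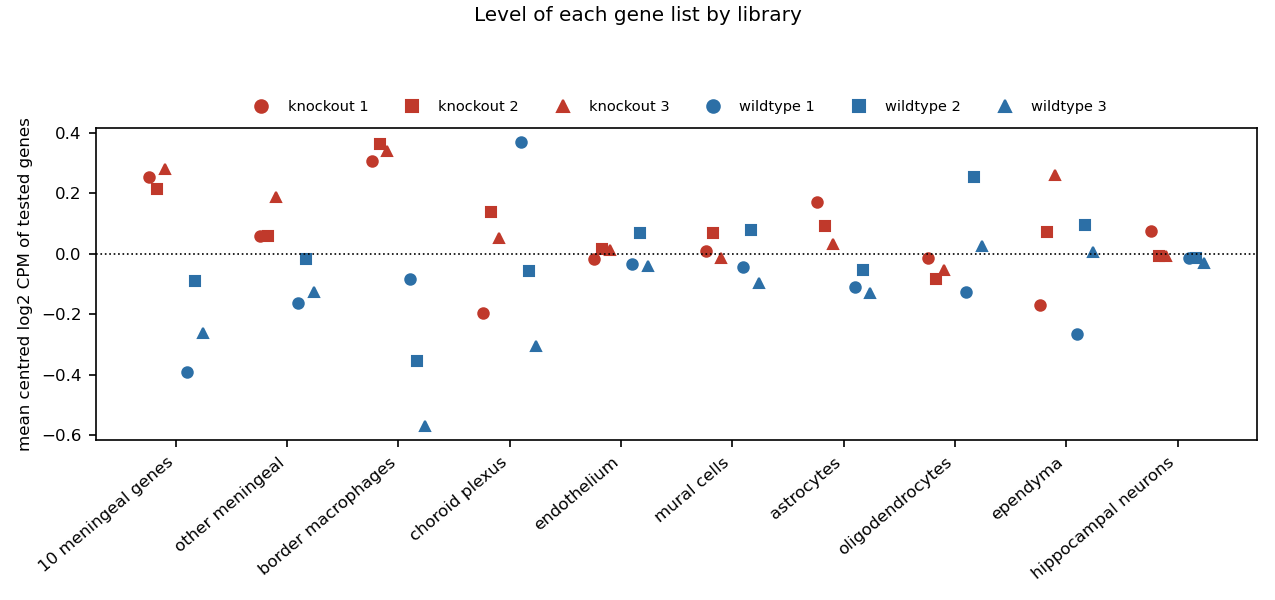
Level of 10 gene lists in each library, as the mean over the tested genes of log2 CPM relative to the 6-library mean (vertical axis); points are mice, knockout left of wildtype in each list. The groups stand apart for the 10 meningeal genes, the other meningeal markers, the border macrophages and the astrocytes. For the hippocampal neurons the groups barely part, at -0.0085 in the lowest knockout and -0.013 in the highest wildtype mouse. Wildtype replicate 1 is highest for choroid plexus.

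The pathways in which the 10 genes act were looked at through their other genes. For prostaglandin D2, 2 of 8 tested genes had a positive and 6 a negative log2 fold (median -0.08, 0 called; 0 higher and 1 lower at an unadjusted p under 0.05). Without 1 library the median ran from -0.13 (without wildtype replicate 3) to -0.044 (without wildtype replicate 1). The cyclooxygenase Ptgs1, which supplies the substrate of Ptgds, measured 12.4 ± 0.29 CPM in knockout and 15.2 ± 2.4 CPM in wildtype (SD, n = 3), which gave a log2 fold of -0.29 (SE 0.11, adjusted p = 0.411). Ptgdr, a receptor of prostaglandin D2, had a log2 fold of 1.14 (SE 0.50, adjusted p = 0.471) at 0.632 ± 0.28 CPM in knockout and 0.277 ± 0.14 CPM in wildtype, and its groups overlapped. The prostaglandin carrier Slco2a1 had a log2 fold of -0.19 (adjusted p = 0.472).

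For retinoic acid, 10 of 17 genes had a positive and 7 a negative log2 fold (median 0.07, 0 called; 2 higher and 2 lower). Without 1 library the median ran from 0.03 (without wildtype replicate 3) to 0.093 (without knockout replicate 1). Crabp2, given above among the meningeal markers, measured 1.16 ± 0.15 CPM in knockout and 0.769 ± 0.10 CPM in wildtype (SD, n = 3). The receptor gene Rarg had a log2 fold of -0.28 (SE 0.12, adjusted p = 0.452). For insulin-like growth factors, 6 of 14 tested genes had a positive and 8 a negative log2 fold (median -0.03, 0 called; 0 higher and 2 lower). The median turned to 0.01 with knockout replicate 2 left out, and was -0.063 with wildtype replicate 2 left out. Igfbp4 and the receptor gene Igf1r had log2 folds of -0.16 and -0.15 (adjusted p of 0.398 and 0.455), and Irs1 one of -0.09 (adjusted p = 0.614). H19, the imprinted neighbour of Igf2, measured 0.233 ± 0.15 CPM in knockout and 0.208 ± 0.083 CPM in wildtype, under the filter on low counts.

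Among the other small leucine-rich proteoglycans and their relatives, 8 of 10 tested genes had a positive log2 fold (median 0.24, 0 called; 3 higher and 0 lower). Ecm2 measured 13.5 ± 0.65 CPM in knockout and 8.81 ± 0.95 CPM in wildtype (SD, n = 3), which gave a log2 fold of 0.62 (SE 0.10, adjusted p = 0.118). Prelp had a log2 fold of 0.27 (SE 0.06, adjusted p = 0.259) and Omd, at under 1 CPM, one of 0.94 (SE 0.36, adjusted p = 0.421). Biglycan (Bgn), a close relative of decorin, had a log2 fold of -0.01 (SE 0.09). Solute carriers of the brain's barriers had 7 of 10 positive log2 folds (median 0.07, 0 called; 1 higher and 0 lower), led by Slc6a20a, a carrier of proline (0.40, SE 0.13, adjusted p = 0.358). Slc6a11 and Slco1c1, which glia and endothelium express, had log2 folds of -0.11 and 0.13 (adjusted p of 0.471 and 0.523).

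The microRNAs that the knockout label names pair with their targets mainly through the seed, bases 2 to 8. The 6 mature microRNAs of the cluster, on chromosome 14 of GRCm38.p6 and on the plus strand, are given here from RefSeq because their seeds define the sites searched. Capitals mark the seed, which divides them into 4 families.
miR-17-5p: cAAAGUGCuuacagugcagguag
miR-20a-5p: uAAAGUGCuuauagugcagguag
miR-18a-5p: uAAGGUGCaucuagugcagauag
miR-19a-3p: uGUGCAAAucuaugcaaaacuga
miR-19b-3p: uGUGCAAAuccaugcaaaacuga
miR-92a-3p: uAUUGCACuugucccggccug

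Lum and Igf2 held a match of 7 bases to one of these seeds in their longest 3' UTR in GENCODE M21. This is 2 of 10 members, against 35.03% of the 14541 tested genes with an annotated 3' UTR. The motifs searched on the transcript strand were GCACTTT (miR-17-5p and miR-20a-5p), GCACCTT (miR-18a-5p), TTTGCAC (miR-19a-3p and miR-19b-3p) and GTGCAAT (miR-92a-3p), held by 14.9%, 10.2%, 13.8% and 7.98% of those genes. The sites are shown with 10 bases on each side, the match in capitals.
Lum: gcagtaagcaTTTGCACggttacttag
Igf2: cttatcccaaGCACCTTtagtgtaaag

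The match in Lum pairs with the seed of miR-19a-3p and miR-19b-3p and lies on the plus strand of GRCm38 at chr10:97572582-97572588. It was also the only site of 8 bases (the 7 bases followed by A, or a match to bases 2 to 9) among the 10 genes, where 21.6% of genes with a 3' UTR hold such a site of any family. The match in Igf2 pairs with the seed of miR-18a-5p and lies on the minus strand at chr7:142653233-142653239. Igf2 had the largest log2 fold of the 10 genes and Lum the third smallest, and the 8 genes with no match in this window had log2 folds from 0.13 (Dcn) to 0.76 (Slc13a4). A match of letters does not show that the microRNA binds there, and none of these folds passed the test.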

How the data were processed

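Hippocampal RNA from 6 mice was read by RNA sequencing. The authors deposited raw read counts per Ensembl gene, 1 table per mouse. The tools named in the submitters' processing notes are DESeq2, HTSeq, SAMtools, STAR 2.3.0e and FastQC 0.10.1, and the build is mm9. Which tool did what, which annotation served and how strand was handled were not given in the sources used here. Each table ends in 5 rows that stand for no gene. These rows, 38.0% to 40.3% of the reads listed, entered neither library sizes nor tests.

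Of 37620 identifiers, 32897 had a symbol in GENCODE M21 (GRCm38), which also gave exon lengths, GC content and 3' UTRs. All 10 members and all 185 entries of 14 other gene lists matched. The members and lists were chosen with earlier results of these data known.

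CPM are counts per 1000000 gene reads on TMM-scaled library sizes. Knockout was tested against wildtype with edgeR 4.0.16 (R 4.3.3; filterByExpr, TMM, quasi-likelihood test on genotype alone), with Benjamini-Hochberg adjustment over all genes tested at 0.05. Lists were described by counts and medians, with no test of their own. Named genes were all 10 members, up to 3 genes of smallest p per list described (2 of these are not reported here), and the 6 genes of nearest profile. Further genes (Col1a1, Col3a1, Pdgfra, Foxc2, Bgn, H19, Stab1 and Tmem72) were named after their values were seen.

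The alternatives were other scalings and filters, DESeq2 1.42.0, limma-voom (limma 3.58.1), edgeR's robust fit, a replicate block, offsets for GC content and exon length (splines of 5 df over 15801 genes), a covariate for the depth set, and leaving out each library. The depth set divides the 3 libraries with more gene reads than the median from the 3 with fewer, and is no group of the study. The computations were tested on simulated counts.

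Gene reads per library ran from 26439693 to 57246827. The mice came from different litters, per the labels, so replicate numbers were not treated as pairs in the main fit. P-values of edgeR's test weigh the difference between genotypes against the spread between mice. That spread was estimated for each gene with information shared across genes. Intervals on counts cover counting error only.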

Additional observations from a re-analysis of the deposited data

How the results depend on the processing

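Of the fitted log2 folds of the 10 genes under the alternatives, 153 kept their direction and stayed short of the threshold. In 6 they newly passed: Ptgds (0.62) and Igf2 (0.77) with no filter, Slc13a4 (0.76), Ogn (0.71) and Igf2 (0.78) with DESeq2, and Igf2 (0.94) without knockout replicate 3. Dcn turned to -0.085 without knockout replicate 3, and ran from -0.085 to 0.23 without 1 library. The count of the 10 genes called higher was thus 3 with DESeq2, 2 with no filter (where 0.141% of genes were called higher), and 0 to 1 without 1 library. It was 0 in every other setting run, and 0 were called lower. Over all genes, the counts called higher and lower were 36 and 26 with no filter, 70 and 93 with DESeq2, 13 and 2 with edgeR's robust fit, and 0 to 13 and 0 to 7 without 1 library. The median log2 fold of the 10 genes was 0.46 to 0.53 in the other settings and 0.42 to 0.63 without 1 library. It was highest without wildtype replicate 2, where 7 genes did not overlap (4 to 7 over the libraries left out). Groups of fewer libraries stand apart more easily, and the share over all genes was not computed there, so these counts show no stronger difference. Sites of 8 bases left 1 member with a seed match. The cause was not tested. Adding the replicate number as a block gave a median of 0.51 and called 0 genes. Same-numbered libraries correlated at -0.10, -0.02 and -0.15 in their deviations, and none correlated best with its own number. These correlations showed no pairing by number, but with so few libraries they cannot settle whether same-numbered libraries shared a batch. Aldh1a2, Lum and Slc13a4 had the lowest read counts in any library (95, 129 and 146), where counting error is largest relative to the level.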

Other observations

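The genes whose profile over the 6 libraries lay nearest to the mean profile of the 10 meningeal genes include none of the other meningeal markers listed. Over 14190 genes at a mean of 1 CPM or more, the 6 nearest named genes differed from that profile by 0.0652 to 0.0826 (root mean square of log2 CPM), where the median gene differed by 0.281. They were Syt10, a synaptotagmin of neurons (8.64 ± 0.35 CPM in knockout and 6.39 ± 0.54 CPM in wildtype; SD, n = 3), the astrocyte connexin Gjb6, the matrix protein Thbs2, Serpinb6b, the heparan sulfate proteoglycan Sdc4, and the endothelial marker Ly6c1. Identifiers that lay as near but had no symbol or gene type, or were pseudogenes, came to 2 and are not named. Of the 10 genes themselves Slc6a13 lay nearest to their mean, with 74 other genes nearer, and Ogn farthest, with 11242 nearer, although each of the 10 contributes to that mean.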
